A study of Mus musculus with 8 samples.

Results

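Mas1, which encodes the Mas receptor, and 8 other genes of the renin-angiotensin system (Ace, Agt, Agtr1a, Agtr1b, Agtr2, Ren1, Lnpep and Mme) were followed in cells sorted from mouse liver. They are 9 of the 46603 gene rows of the count table, found by gene symbol. The set was chosen by the counts of Mas1, which were higher in the EGFP-positive libraries, so its difference between the groups is a description and carries no test, and the other 8 were listed for their place in the same system. RNA-seq was performed on 8 libraries from 4 mice (JV602, JV621, JV624 and JV6314), with 1 library of EGFP-positive cells, termed liver label-retaining cells (LLRCs), and 1 library of EGFP-negative cells, termed non-LRC cells, from each mouse. All mice were heterozygous for the R26rtTA and H2B-EGFP transgenes on a mixed C57BL/6 and CBA background. Doxycycline was given from birth and stopped at postnatal day 5, and at 8 weeks of age EpCAM-positive, CD45-negative cells were split by EGFP. Both groups therefore share the transgenes, the doxycycline and the EpCAM gate, and were split by the EGFP signal found at 8 weeks. The study counted fewer than all biliary cells as EGFP-positive at postnatal day 5, so a lack of EGFP need not mean loss by cell division. The Rosa26 locus that drives the transactivator is active in all cell types, and the study's text says that in bone marrow, hematopoietic cells can carry the EGFP fusion with no doxycycline given.

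Renin cleaves angiotensinogen to angiotensin I, which angiotensin-converting enzyme (Ace) turns into angiotensin II, the ligand of the receptors Agtr1a, Agtr1b and Agtr2. A counter-acting branch cuts the angiotensins to a shorter peptide, with neprilysin (Mme) among the enzymes that do so, and that peptide binds the Mas receptor. In the liver, hepatocytes are the main source of circulating angiotensinogen, and angiotensin II and the Mas branch are known for opposing roles in fibrosis.

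Mas1 (ENSMUSG00000068037) lies on the minus strand of chromosome 17, from 12841079 to 12868143 of GRCm38, the build of all positions given here, as a protein-coding gene with an exon length of 2620 bases. Airn, a long noncoding RNA that is known to silence the imprinted gene Igf2r, runs across it on the plus strand, from 12741311 to 12860136. The promoter windows of both genes, 250 bases before to 50 bases after the start in RefSeq on GRCm38.p6, are printed below because the 2 genes overlap. Each window covers 1 start, while the gene annotation lists 7 transcript starts for Mas1 and 6 for Airn. Which starts the counted reads come from was not tested. CG dinucleotides are in capitals.
Mas1, chr17:12868094-12868393, minus strand: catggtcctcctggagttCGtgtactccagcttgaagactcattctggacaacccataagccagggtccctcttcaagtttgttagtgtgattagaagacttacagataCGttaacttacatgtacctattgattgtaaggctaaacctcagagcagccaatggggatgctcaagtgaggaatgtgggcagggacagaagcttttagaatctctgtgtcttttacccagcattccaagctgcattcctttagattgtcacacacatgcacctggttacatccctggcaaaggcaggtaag
Airn, chr17:12741061-12741360, plus strand: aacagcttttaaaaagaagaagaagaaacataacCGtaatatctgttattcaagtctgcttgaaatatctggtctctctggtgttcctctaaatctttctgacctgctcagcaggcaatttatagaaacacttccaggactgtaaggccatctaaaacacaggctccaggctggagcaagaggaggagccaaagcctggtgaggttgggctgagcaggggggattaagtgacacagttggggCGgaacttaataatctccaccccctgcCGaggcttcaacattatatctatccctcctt
The Mas1 window holds 2 CG dinucleotides and the Airn window 3, against a median of 7 over 32851 promoter windows of 300 bases. Windows with as few CG dinucleotides as that of Mas1 made up 23.3% of all windows, and 31.4% had as few as that of Airn. The letters TATAAA, searched on both strands, occur in the Airn window and not in the Mas1 window, and in 13.6% of all windows. These matches describe the letters only.

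Total counts ranged from 7860021 to 9851819 in the LLRC libraries and from 4670132 to 8056103 in the non-LRC libraries. Levels are given in CPM, the usual scaling of counts to a common library size, here with the TMM factor of each library. Values of single libraries always follow the mouse order JV602, JV621, JV624 and JV6314. All 10 cholangiocyte markers looked at were read in both groups. Spp1, which encodes osteopontin, ranged from 111910 to 218645 CPM in the LLRC libraries and from 64249 to 159148 CPM in the non-LRC libraries, and the other 9 summed to between 1304 and 1714 CPM in the LLRC libraries and between 1014 and 1488 CPM in the non-LRC libraries. Markers of other cells stood apart in the non-LRC libraries. Those of endothelial cells, with all 10 read in both groups, summed to between 177.6 and 707.9 CPM there, against 27.5 to 49.3 CPM in the LLRC libraries. Hepatocyte markers, all 10 also read in both groups, summed to 6644 and 6250 CPM in the non-LRC libraries of JV624 and JV6314, and to between 2189 and 3450 CPM in the other 6 libraries. In the non-LRC library of JV6314 the 10 pancreatic acinar markers summed to 1180 CPM, against at most 22.9 CPM elsewhere. The non-LRC library of JV621 held reads for 14234 genes, the fewest of all, and its 10 hematopoietic markers summed to 589.3 CPM, nearly all from S100a8 with 2732 counts. The hematopoietic markers ranged from 12.2 to 106.1 CPM in the LLRC libraries and from 24.9 to 589.3 CPM in the non-LRC libraries, with Cd79a and Cd3e at 0 in all 8. The part of these markers in the results was not tested.

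**Figure D1:**
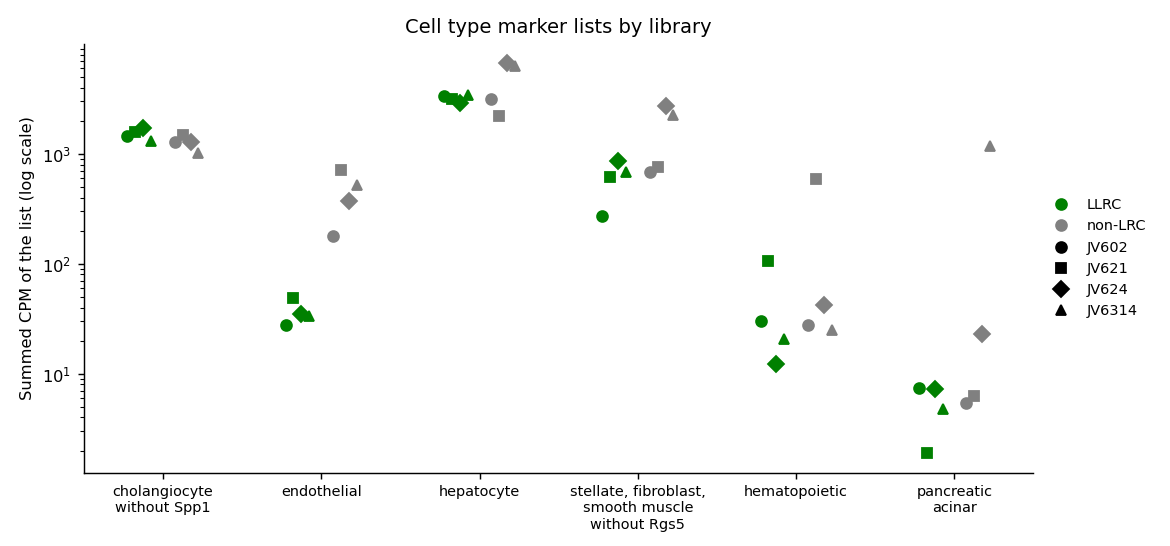
Summed CPM of 6 lists of cell type markers, without Spp1 and Rgs5 (y axis, log scale) in each of the 8 libraries, by list (x axis), with green for LLRC, grey for non-LRC and 1 symbol for each mouse. Endothelial markers were higher in all 4 non-LRC libraries, and the non-LRC library of JV6314 stands apart with 1180 CPM of pancreatic acinar markers.

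Mas1, the receptor of the counter-acting branch, was read mostly in the LLRC libraries, which held 305 of its 312 counts. The same libraries held 59.7% of the counts of all genes. Mas1 counts were 83, 96, 11 and 115 in LLRCs, against 6, 1, 0 and 0 in the non-LRC libraries of the same mice. In CPM the LLRC values were 8.05, 11.4, 1.62 and 12.8, and the non-LRC values 0.751, 0.209, 0 and 0. No LLRC value was as low as any non-LRC value, and the LLRC library of JV624 was far below the other 3. Of the 13605 genes tested, 2.15% also had all 4 LLRC values above all 4 non-LRC values, and since the gene was chosen for this contrast nothing more is read from it. The mean was 8.45 ± 4.96 CPM in LLRCs against 0.24 ± 0.355 CPM in non-LRC cells (SD, n = 4 mice). Within JV602 the level was 10.7-fold higher in LLRCs, with a 95% exact counting interval of 4.72 to 30.0. In JV621, with 1 count in the non-LRC library, the ratio was 54.4 with an interval of 9.53 to 2170. Against a floor of 3 counts in the non-LRC library, the level was at least 3.42-fold higher in JV624 and at least 21.6-fold higher in JV6314. These intervals and bounds cover counting error only. The fitted log2 fold change was 4.94 (standard error 1.16), and without the LLRC library of JV624 the LLRC mean was 10.7 CPM. Without the non-LRC library of JV602, which held 6 of the 7 non-LRC counts, the non-LRC mean was 0.0696 CPM and the log2 fold change 6.70. In bulk samples of sorted cells, fewer cells with the transcript and less transcript per cell cannot be told apart.

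Ptprc, which encodes CD45, the protein used to gate out hematopoietic cells, was also read mostly in the LLRC libraries. Its counts were 5, 34, 14 and 59 in the LLRC libraries and 0, 0, 0 and 7 in the non-LRC libraries. Both Ptprc and Mas1 had their highest LLRC count in JV6314 and the next in JV621, while JV602 was lowest for Ptprc and JV624 for Mas1. Of the 10 hematopoietic markers, Ptprc among them, 5 were read in LLRCs and 8 in non-LRC cells, and others lay the opposite way to Ptprc. The macrophage markers Adgre1, Clec4f and Cd5l gave 39, 12 and 60 counts in the non-LRC library of JV624 and 8, 10 and 23 in that of JV6314, with at most 1 count of any of them in the other 6 libraries. Lyz2, a myeloid marker, gave 1, 2, 0 and 0 counts in LLRCs, against 5, 3, 24 and 11 in non-LRC cells. Whether the Ptprc and Mas1 reads come from the same cells was not tested.

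The counts were made without strand, so reads of Mas1 and of Airn over the same bases cannot be told apart. The whole coding part of Mas1, 972 bases from 12841563 to 12842534, and 87.4% of its exon bases lie inside the span of Airn, over an overlap of 19058 bases. No exon bases of Mas1 lie in annotated exons of Airn (0.0%), so a read counted for Mas1 there could come from spliced Mas1 or from unspliced Airn. No stretch of 50 bases in the Mas1 transcripts occurs in transcripts of another gene.

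The limit of counts without strand also holds for Airn. Of its exon bases, 26.0% lie inside the spans of genes on the other strand (CT030636.2, Igf2r and Mas1), so its counts may hold unspliced reads of these genes. Airn gave 49, 24, 5 and 60 counts in LLRCs, against 11, 0, 19 and 0 in non-LRC cells. The groups overlapped, and the non-LRC library of JV624 had more Airn counts than its LLRC library. The LLRC library of JV624 was thus the lowest of its group for both genes, while its non-LRC partner held 19 counts of Airn and none of Mas1. In CPM, Airn stood at 3.75 ± 2.54 in LLRCs and 1.09 ± 1.43 in non-LRC cells (SD, n = 4). Its log2 fold change was 1.73 ± 1.23 (SE), with an adjusted p = 0.9999 in edgeR's quasi-likelihood fit. It was 2.69 with the mouse as a block and 2.87 without the non-LRC library of JV624. Its Pearson r with Mas1 over the 8 libraries was 0.73 on log2(CPM + 0.5), place 281 among the other genes tested. Igf2r, the receptor gene that overlaps the start of Airn, averaged 59.9 ± 17.7 CPM in LLRCs, against 47.0 ± 11.6 CPM in non-LRC cells (mean ± SD over 4 mice), and had an r of 0.32 with Mas1.

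**Figure D2:**
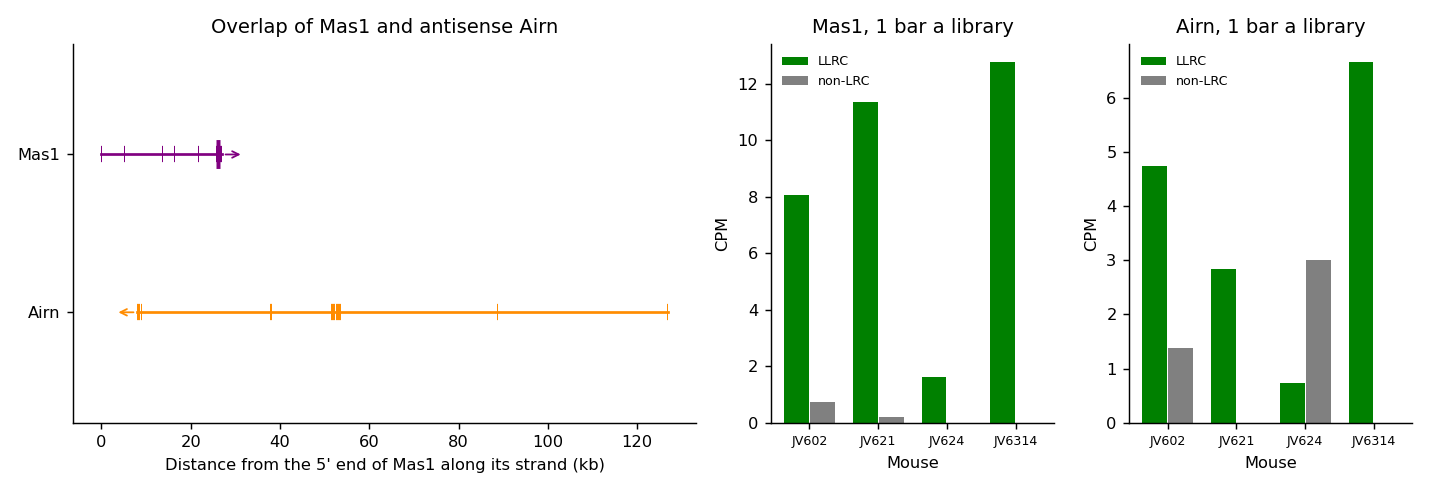
Left, exons (boxes), coding part (tall box) and direction (arrows) of Mas1 and Airn by distance in kb from the 5′ end of Mas1, with Airn running across the coding part of Mas1 in the opposite direction. Right, CPM of Mas1 and of Airn in the LLRC (green) and non-LRC (grey) library of each mouse, 1 bar a library, where Mas1 was higher in LLRCs in all 4 mice and Airn in 3.

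Of the 16 other annotated genes within 100 kb of Mas1 that are in the count table, Mrgprh, Gm26130, Gm23833 and Gm16574 had no reads, and 8 were tested. None passed in edgeR's quasi-likelihood test (0 of 8, beside 0.0% of all genes tested, and 0 of 8 at an unadjusted p below 0.05, beside 5.16%), and 4 of the 8 had a log2 fold change above 0. Besides Airn and Igf2r these were Acat2, Mrpl18, Wtap, Acat3, Tcp1 and Gm15946, with log2 fold changes over the 8 from -1.01 for Acat3 to 1.73 for Airn. Snora20, Pnldc1, Gm7162 and Gm24085 had too few reads to be tested.

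The 5 tested genes whose levels were most like those of Mas1 over the 8 libraries were Panct2 (r = 0.97), Rbl2 (0.96), Hnrnpc (0.96), Oprk1 (0.95) and Gm16536 (0.95), by Pearson r on log2(CPM + 0.5). These are descriptions over 8 libraries that share 2 groups and 4 mice, and no p was computed. Rbl2 encodes a pocket protein of the retinoblastoma family, Hnrnpc an RNA-binding protein and Oprk1 the kappa opioid receptor. Oprk1 gave 51, 139, 32 and 171 counts in LLRCs, against 1, 0, 0 and 0 in non-LRC cells. Panct2 gave 175, 129, 26 and 112 counts in LLRCs, against 2, 0, 0 and 0 in non-LRC cells. Both were, like Mas1, lowest among the LLRC libraries in JV624 by counts. Among the renin-angiotensin genes tested, r with Mas1 was 0.36 for Mme, 0.32 for Lnpep, 0.20 for Agt and -0.21 for Agtr1a.

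Among the other genes of the system, the ligand precursor and the receptor Agtr1a were abundant in both groups, the enzymes Ace and Ren1 were barely read, and none of those tested passed the test for a difference between LLRCs and non-LRC cells. Of the 9 genes, 8 had at least 1 read, 5 passed the expression filter (Mas1, Agt, Agtr1a, Lnpep and Mme) and 0 had an adjusted p below 0.05 in edgeR's quasi-likelihood test. Nor did any of the 13605 genes tested (0.0%). At an unadjusted p below 0.05 the count was 1 of the 5, which was Mas1, the gene the set was chosen by, against 702 of 13605 genes (5.16%). DESeq2's Wald test called 221 of the 13605 genes (1.62%) and edgeR's exact test without a filter 127 of 27591 (0.46%), and the one gene of the 9 in both was again Mas1, from which nothing is read. Without Mas1, the other 4 tested had log2 fold changes from -0.29 to 0.14 with a median of -0.04, beside a median of -0.01 over all genes tested.

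Ren1 (chromosome 1, 133350510 to 133360325, plus strand), which encodes renin, the enzyme that starts the cascade, had 1 count in each library of JV602 and 0 in the other 6. A floor of 3 counts is worth 0.291 to 0.626 CPM, depending on the library, so Ren1 was at or below the floor throughout and no fold is given. Ren2 was not analysed here.

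Agt (chromosome 8, 124556534 to 124569706, minus strand), which encodes angiotensinogen, the precursor of all angiotensins, was read in every library. It gave 1415, 792, 254 and 407 counts in LLRCs, against 716, 296, 534 and 251 in non-LRC cells. In CPM the LLRC values were 137, 93.7, 37.4 and 45.2, and the non-LRC values 89.7, 61.8, 84.3 and 49.5. LLRCs were higher in JV602 and JV621 and lower in JV624 and JV6314, and the groups overlapped. The means were 78.3 ± 46.5 and 71.3 ± 18.9 CPM (SD, n = 4). The fitted log2 fold change was 0.14 ± 0.45 (SE), with an adjusted p = 0.9999 in edgeR's quasi-likelihood fit. Without the LLRC library of JV602 the log2 fold change was -0.27. JV624 and JV6314 are also the mice whose non-LRC libraries held the most hepatocyte markers, 6644 and 6250 CPM, against 2929 and 3450 CPM in their LLRC libraries, and the part of this in the Agt levels was not tested.

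Ace (chromosome 11, 105967945 to 105989964, plus strand), the converting enzyme that makes angiotensin II, gave 3, 0, 0 and 0 counts in LLRCs, against 3, 0, 4 and 0 in the non-LRC libraries. With at most 4 counts in a library it did not pass the filter, and 66.3% of its exon bases lie inside the span of Gm11651 on the other strand, so these few reads cannot be assigned with certainty. In the fit without a filter its log2 fold change was -1.54 (standard error 1.71, adjusted p = 0.754, edgeR).

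Agtr1a (chromosome 13, 30336441 to 30382867, plus strand), the main receptor of angiotensin II in rodents, had the highest level of the 9 per kb of exon. It gave 3257, 2277, 1828 and 3028 counts in LLRCs, against 2555, 2691, 1683 and 1546 in non-LRC cells. In CPM the LLRC values were 315.7, 269.3, 268.8 and 336.2, and the non-LRC values 320.0, 561.9, 265.7 and 305.1. All libraries but 1 lay between 265.7 and 336.2 CPM, and the non-LRC library of JV621 stood above them. The means were 297.5 ± 33.9 and 363.2 ± 134.5 CPM (SD, n = 4). Its log2 fold change was -0.29 ± 0.29 (SE), with an adjusted p = 0.9999 in edgeR's quasi-likelihood fit. Without the non-LRC library of JV621, which held reads for the fewest genes, the log2 fold change was 0.01. Markers of stellate cells, fibroblasts and smooth muscle, with all 10 read in both groups, summed to between 2468 and 9928 CPM in the LLRC libraries and between 3499 and 9020 CPM in the non-LRC libraries. Rgs5, a pericyte and smooth muscle marker, made up the larger part of each sum. Without it the other 9 summed to between 271.7 and 869.9 CPM in the LLRC libraries and between 683.3 and 2746 CPM in the non-LRC libraries, and were higher in the non-LRC library of each mouse. Lrat, which marks stellate cells, ranged from 4.22 to 8.87 CPM in LLRCs, against 20.2 to 74.2 CPM in non-LRC cells, and Dcn, which marks fibroblasts and stellate cells, from 66.2 to 552.5 CPM, against 485.9 to 2311 CPM. Others lay the opposite way in 3 of the 4 mice. Rgs5 was higher in LLRCs in JV621, JV624 and JV6314, and Reln, a stellate cell marker, in JV602, JV621 and JV624, at 187.5, 220.3 and 295.0 CPM, against 146.1, 141.6 and 170.5 CPM. The part of these cells in the Agtr1a levels was not tested.

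Agtr1b (chromosome 3, 20314473 to 20367177, minus strand), the second rodent form of this receptor, was read at low levels. It gave 6, 3, 2 and 8 counts in LLRCs, against 10, 14, 4 and 7 in the non-LRC libraries. In CPM the LLRC values were 0.582, 0.355, 0.294 and 0.888, and the non-LRC values 1.25, 2.92, 0.631 and 1.38. LLRCs were lower in all 4 mice, a pattern that 5.53% of the genes tested also had, but the 2 groups overlapped. The gene did not pass the filter, and in the fit without a filter its log2 fold change was -1.46 (standard error 1.04, adjusted p = 0.633, edgeR). Of its transcript words of 50 bases, 1.55% occur also in transcripts of Agtr1a, so a few of these reads may be hard to place. Agtr2 (chromosome X, 21484544 to 21489164, plus strand), the other class of angiotensin II receptor, had 0 counts in all 8 libraries, which allows up to the floor of 3 counts in each.

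Mme (chromosome 3, 63241537 to 63386030, plus strand), which encodes neprilysin, a peptidase of the counter-acting branch, was read at between 101.9 and 187.6 CPM in all 8 libraries. Its counts were 1768, 1272, 693 and 1690 in LLRCs, against 1222, 672, 724 and 931 in the non-LRC libraries. In CPM the LLRC values were 171.4, 150.4, 101.9 and 187.6, and the non-LRC values 153.0, 140.3, 114.3 and 183.7. The mice kept the same order in both groups, with JV624 lowest and JV6314 highest, and the 2 libraries of a mouse lay close together. The means were 152.8 ± 37.2 and 147.8 ± 28.8 CPM (SD, n = 4). The fitted log2 fold change was 0.05 ± 0.28 (SE), with an adjusted p = 0.9999 in edgeR's quasi-likelihood fit.

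Lnpep (chromosome 17, 17521410 to 17625050, minus strand), the insulin-regulated aminopeptidase that binds angiotensin IV, was uneven within both groups. It gave 78, 141, 1 and 44 counts in LLRCs, against 25, 0, 9 and 139 in non-LRC cells. In CPM the LLRC values were 7.56, 16.7, 0.147 and 4.89, and the non-LRC values 3.13, 0, 1.42 and 27.4. High and low libraries occurred in both groups, and LLRCs were higher in JV602 and JV621 and lower in JV624 and JV6314. The log2 fold change was -0.12 (standard error 1.46, adjusted p = 0.9999, edgeR quasi-likelihood test) and -0.91 without the LLRC library of JV621. It was 2.23 without the non-LRC library of JV6314, the one with 1180 CPM of pancreatic acinar markers. The part of these markers in the Lnpep levels was not tested.

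**Figure D3:**
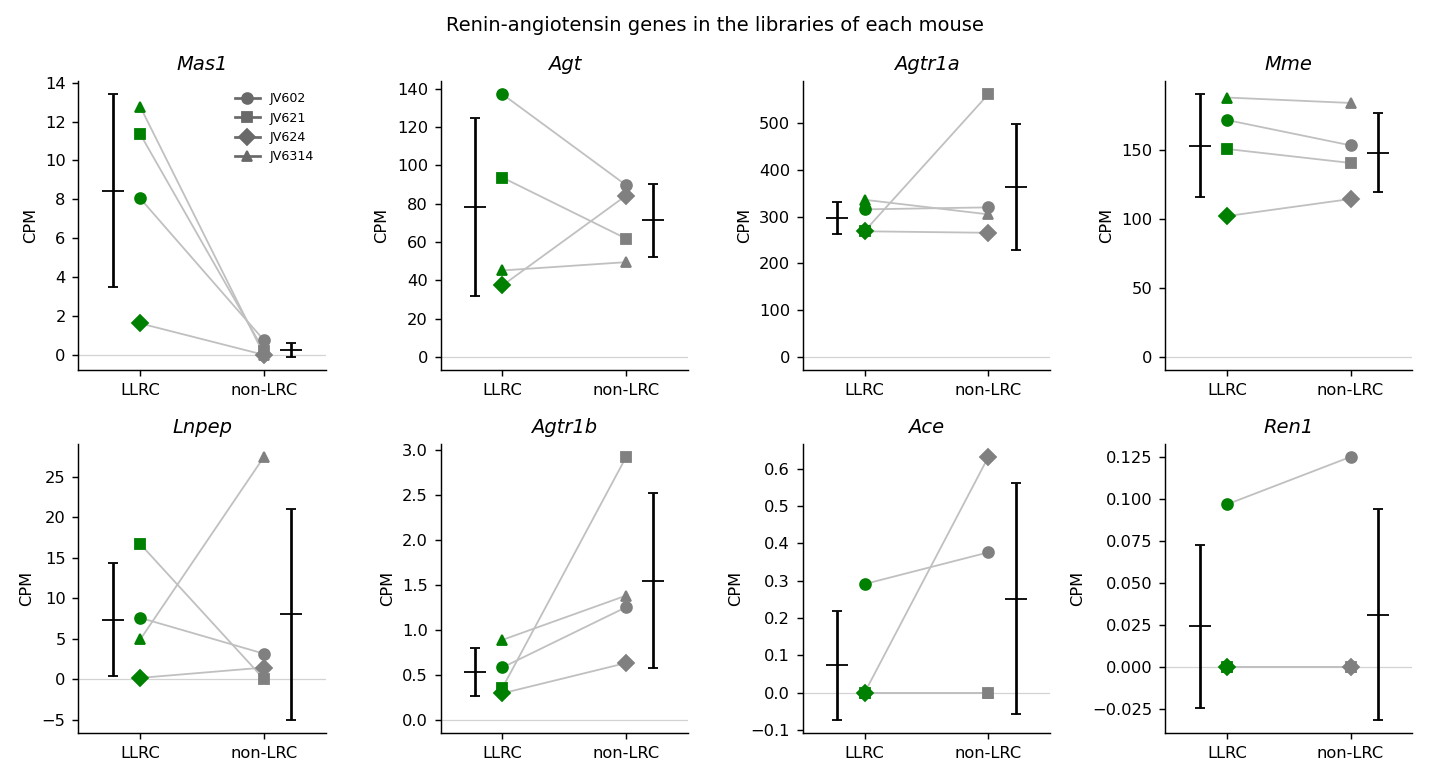
CPM (y axis, linear, 1 scale for each panel) of 8 of the 9 genes in the LLRC (green) and non-LRC (grey) libraries, with a line joining the 2 libraries of a mouse, 1 symbol for each mouse, and black bars for mean ± SD (n = 4). The lines all fall from LLRC to non-LRC for Mas1, cross for Agt and Lnpep, and run nearly level for Mme. Agtr2, at 0 throughout, is left out.

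Levels were compared between genes only after division by exon length, as CPM per kb of exon. Over the 8 libraries the order was Agtr1a at 118.6 ± 34.9, Agt at 39.6 ± 17.5, Mme at 13.0 ± 2.68, Mas1 at 1.66 ± 2.09, Lnpep at 0.541 ± 0.684, Agtr1b at 0.484 ± 0.399, Ace at 0.0307 ± 0.046 and Ren1 at 0.0168 ± 0.0314 CPM per kb (SD, n = 8 libraries), with Agtr2 at 0. The ranges of Agtr1a, Agt, Mme and Mas1 did not overlap, each gene being above the next in 8 of 8 libraries. Mas1, Lnpep and Agtr1b could not be ordered among themselves, nor could Ace, Ren1 and Agtr2, since their ranges overlapped. Mas1 was above Agtr1b in all 4 LLRC libraries and below it in all 4 non-LRC libraries. Of 13561 tested genes with a known length, 97.3% had a lower level per kb than Agtr1a, 91.0% than Agt, 75.1% than Mme and 24.7% than Mas1. In the LLRC libraries alone Mas1 stood at 3.22 CPM per kb and Agtr1a at 106.8, and in the non-LRC libraries at 0.0916 and 130.3 CPM per kb.

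**Figure D4:**
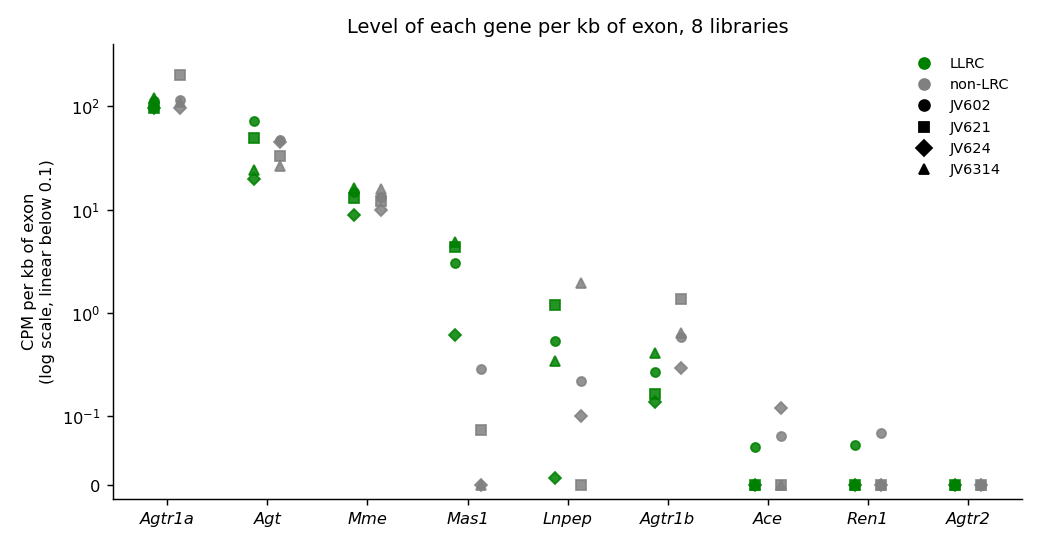
CPM per kb of exon (y axis, log scale, linear below 0.1) of the 9 genes (x axis, in order of their mean) in the LLRC (green) and non-LRC (grey) libraries, 1 symbol for each mouse. Agtr1a, Agt and Mme kept their order in all 8 libraries. Mas1 stood at 0.287, 0.0797, 0 and 0 CPM per kb in the non-LRC libraries, where the highest values of Ace and Ren1 were 0.119 and 0.0756.

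A further list of renin-angiotensin genes had 20 members analysed here, of which 13 were tested and 0 passed the threshold in either direction (edgeR quasi-likelihood test), against 0.0% of all genes. At an unadjusted p below 0.05 the count was also 0 of the 13, against 5.16% of all genes, and over the alternatives it lay between 0 and 3, the 3 being among 14 tested without the non-LRC library of JV621. No member passed in DESeq2's Wald test, against 1.62% of all genes, or in edgeR's exact test, against 0.46%. Of the 13, 8 had a log2 fold change above 0 and 5 below, with a median of 0.12.

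Peptidases that can release the ligand of the Mas receptor were read in both groups. Of these, Prep, Thop1, Nln and the carboxypeptidase Prcp had means between 2.61 and 20.4 CPM in either group and log2 fold changes of -0.16, 0.94, 0.12 and -0.62 with standard errors of 0.75, 1.25, 0.49 and 0.56. Thop1 gave 67, 45, 41 and 23 counts in LLRCs, against 53, 0, 24 and 0 in non-LRC cells. Its log2 fold change was 2.39 with the mouse as a block, 1.95 when the non-LRC library of JV602 was left out and 0.54 without that of JV621 or of JV6314. That of Prep was 0.50 with the block, and that of Prcp 0.05 without the non-LRC library of JV6314.

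Among the angiotensinases, Enpep (aminopeptidase A) averaged 57.3 ± 11.3 CPM in LLRCs, against 106.4 ± 83.7 CPM in non-LRC cells (mean ± SD over 4 mice). Its log2 fold change was -0.89 ± 0.50 (SE). The non-LRC library of JV621 alone had 228.7 CPM, and the other 7 libraries lay between 39.1 and 83.0 CPM. Without that library the log2 fold change was -0.19. Anpep (aminopeptidase N) and Rnpep (aminopeptidase B) had log2 fold changes of 0.37 (standard error 0.43) and 0.49 (standard error 0.46). Ctsa, a lysosomal carboxypeptidase that can also cut angiotensins, stood at 94.3 ± 25.7 and 87.2 ± 30.5 CPM.

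Atp6ap2, the (pro)renin receptor and a subunit of the vacuolar proton pump, had the highest level of this list per kb of exon, at 128.3 CPM per kb. It averaged 388.5 ± 96.1 CPM in LLRCs, against 283.3 ± 133.1 CPM in non-LRC cells (mean ± SD over 4 mice). The fitted log2 fold change was 0.46 ± 0.36 (SE). Agtrap, a protein that binds the angiotensin receptor, stood at 11.2 ± 2.50 and 13.0 ± 7.20 CPM. Cltrn (collectrin), which takes part in amino acid transport, stood at 151.6 ± 23.9 and 135.9 ± 69.4 CPM.

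Nr3c2, the mineralocorticoid receptor that responds to aldosterone downstream of angiotensin II, was the one gene of the 13 whose groups did not overlap. It stood at 14.0, 10.4, 14.9 and 9.88 CPM in LLRCs, against 7.14, 0, 4.10 and 7.50 CPM in the non-LRC libraries. That is 1 of 13, beside 2.15% of all genes tested with the LLRC values all above the non-LRC values. Its log2 fold change was 1.38 (standard error 0.93, adjusted p = 0.9999, edgeR quasi-likelihood test) and did not pass the threshold.

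Kng1, which encodes the kininogen that hepatocytes secrete, had the lowest fold change of the list. It stood at 21.1, 17.1, 44.1 and 42.4 CPM in LLRCs, against 16.4, 17.3, 166.5 and 270.1 CPM in the non-LRC libraries. The high values were those of the non-LRC libraries of JV624 and JV6314, the same that held 6644 and 6250 CPM of hepatocyte markers, and the part of these in the result was not tested. The log2 fold change was -1.91 (standard error 0.89, adjusted p = 0.983, edgeR quasi-likelihood test). It was -1.09 without the non-LRC library of JV6314 and -1.06 with the mouse as a block. Kng1 and Klk1 have close copies in the mouse genome, so their counts are uncertain where reads match more than 1 gene. Klk1, a tissue kallikrein that releases kinins, was read at 2.25 and 6.88 CPM in the LLRC libraries of JV621 and JV6314 and at 0.474 and 6.31 CPM in the non-LRC libraries of JV624 and JV6314, with 0 in the other 4. The non-LRC library of JV6314 held 1180 CPM of pancreatic acinar markers and the LLRC library of this mouse 4.77 CPM. The kinin receptors Bdkrb1 and Bdkrb2 had means below 1 CPM and did not pass the filter. Bdkrb1 gave 8, 0, 17 and 0 counts in LLRCs, against 1, 0, 0 and 0 in non-LRC cells. Bdkrb2 gave 0, 3, 0 and 1 counts in LLRCs and 0 in non-LRC cells. The proteases Ctsg, Cma1 and Cpa3 and the receptor Mrgprd had no reads. These 6 genes are named after their values were seen.

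**Figure D5:**
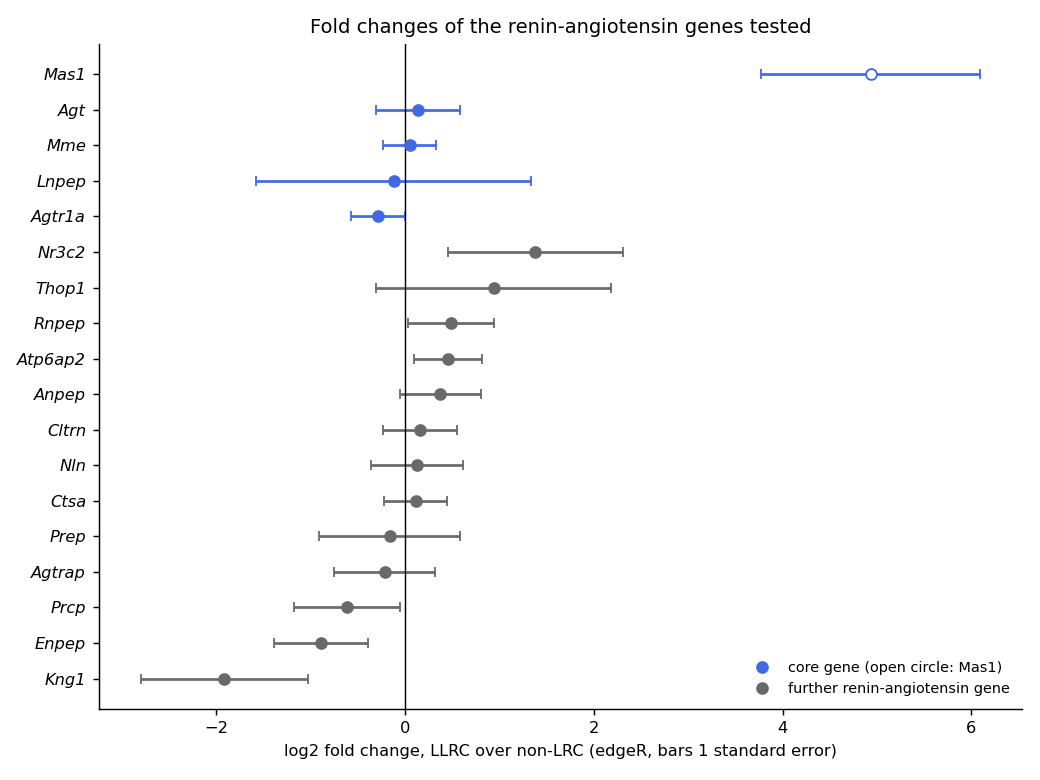
log2 fold change of LLRC over non-LRC (x axis) with bars of 1 standard error for the renin-angiotensin genes tested (y axis), with the 5 core genes in blue and the 13 further genes in grey. All but Mas1, drawn open because it was chosen for this contrast, lie between -1.91 and 1.38, and none had an adjusted p below 0.05 in the edgeR quasi-likelihood test from which the values come.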

How the data were processed

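RNA of sorted liver cells was sequenced in 8 libraries, an LLRC and a non-LRC library from each of 4 mice, and the labels name the mouse. The authors deposited 1 table of whole-number read counts, not normalized. The authors had reads mapped at a core facility (the aligner is not given in the sources used here) and counted them on exons with HTSeq in union mode, without strand, on the Ensembl annotation of GRCm38.p4. The table of the authors' own edgeR comparison, with fold changes, abundances, p and adjusted p, was not used.

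From the counts, 13605 of 46603 genes passed filterByExpr. Libraries were scaled by TMM and tested with edgeR 4.0.16 (R 4.3.3), by the quasi-likelihood test with the group as the only term and Benjamini-Hochberg adjustment over all genes tested, at a threshold of 0.05. Fold changes are LLRC over non-LRC. DESeq2 1.42.0, other filters and scalings, edgeR's exact test, a block for the mouse, and fits that leave out each library in turn were alternatives. The test was checked on simulated counts. The 2 libraries of a mouse come from 1 animal and so are pairs, and their deviations from the group means correlated at 0.096, 0.074, 0.003 and 0.171 across genes for JV602, JV621, JV624 and JV6314.

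The members, gene lists and tests were chosen with earlier results of these data known. Genes named are the 9 members, further renin-angiotensin genes with a mean of at least 1 CPM, the 5 tested genes most like Mas1, genes within 100 kb of it, and markers. An item of the further list is not reported here. Exons and positions are from GENCODE M21 on GRCm38, a later annotation than the authors' on the same chromosome sequence, and promoters from RefSeq on GRCm38.p6, which had entries for 8 of the 9 members. Counting intervals are exact 95% intervals of the ratio of 2 counts.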

Additional observations from a re-analysis of the deposited data

Results flagged for a closer look

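For the 9 genes and the further genes named, each group of 4 libraries was searched for a library set apart from the other 3 by a gap that passes Dixon's test for 4 values. Of 44 groups examined, 7 had such a library. The test's rate of about 1 in 20 groups holds for normally distributed values. A group with reads in only 1 library passes by construction, so the 7 cannot be set against that rate. Lnpep was at 27.4 CPM in the non-LRC library of JV6314, and Klk1 was at 6.31 CPM in the same library, the one with the most pancreatic acinar markers. In the LLRC library of JV6314, where these markers summed to 4.77 CPM, Klk1 was at 6.88 CPM. The part of these markers in either level was not tested. Among the LLRC libraries, Enpep was at 74.1 CPM in JV6314, above the others, and Nln at 10.1 CPM in JV602, below 3 libraries that lay close together. The other flags rest on 1 to 3 counts, namely Ace at 0.291 CPM in the LLRC library of JV602 and Ren1 at 0.0969 CPM in the LLRC and 0.125 CPM in the non-LRC library of that mouse.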

How the results depend on the processing

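No gene passed the threshold with edgeR's quasi-likelihood test, and the count rose to 221 with DESeq2's Wald test, 127 with edgeR's exact test without a filter and 11 with no expression filter. Without 1 library it was between 0 and 6, the 6 being reached without the non-LRC library of JV602. Among the 9 renin-angiotensin genes the count was 1 with DESeq2 and 1 with the exact test, Mas1 in both, and 0 under each of the other 13 alternatives. For the further list it was 0 under all 15. With the mouse as a replicate block, 0 genes passed, and the block changed no call of any gene named. The log2 fold change of Mas1 ran from 4.55 to 6.70 over the 15 alternatives, which says nothing of stability because the gene was chosen for its direction in these counts. Those of other genes close to 0 changed sign. With the block, Agt was at -0.0121, Lnpep at 0.0807 and Prep at 0.50, and with library size only Mme was at -0.0048. Leaving out 1 library gave ranges of -0.27 to 0.38 for Agt, -0.42 to 0.0127 for Agtr1a, -0.91 to 2.23 for Lnpep, -0.0622 to 0.21 for Mme, -0.51 to 0.11 for Agtrap, -0.87 to 0.0453 for Prcp, -0.52 to 0.27 for Prep, -0.13 to 0.36 for Nln, -0.0576 to 0.35 for Ctsa and -0.10 to 0.51 for Cltrn. The cause was not tested. The values of Ace, Ren1 and Agtr2 and the non-LRC values of Mas1 rest on few or no counts and are uncertain. They lie near or under 3 counts, apart from 6 for Mas1 in the non-LRC library of JV602.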
